A study of Mus musculus with 6 samples.

Results

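The genes described here are 10 chaperones and folding factors of the endoplasmic reticulum (ER), namely Hspa5, Hsp90b1, Pdia4, Pdia6, Calr, Sdf2l1, Dnajb9, Creld2, Manf and Hyou1. The rule that names them uses no measured value, but the list was drawn up with earlier results of these data known. All 10 were present among the 16623 genes of the expression table. Livers of 3 wild-type and 3 SIRT7-/- mice had been dissociated and sequenced as single cells with the 10x Genomics 3' kit, 1 library per mouse. The study's methods state an age of 5 to 6 months for the SIRT7-/- mice, and the same age was taken for the wild-type mice. The SIRT7-/- mice lack the histone deacetylase SIRT7 in every tissue, were fed chow, and serve in the study as a model of spontaneous nonalcoholic steatohepatitis. The labels give the genotypes as WT and SIRT7 KO and name no treatment. Hepatocytes and nonparenchymal cells had been isolated separately and mixed in equal numbers, so the share of each cell type in a library does not give its share in the liver.

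The ER folds proteins that are secreted or inserted into membranes. When unfolded proteins accumulate there, the sensors IRE1, PERK and ATF6 start the unfolded protein response, and the transcription factors XBP1, ATF6 and ATF4 then raise the genes of chaperones, folding enzymes and degradation factors. Hepatocytes and plasma cells both secrete large amounts of protein, and XBP1 is needed for the expanded ER of plasma cells. Among the 10 genes, Hspa5 encodes BiP, the ER form of HSP70 that also holds the sensors inactive. Hsp90b1 encodes GRP94, the ER form of HSP90. Pdia4 and Pdia6 encode protein disulfide isomerases. Calr encodes calreticulin, a calcium-binding chaperone that recognises sugar chains on glycoproteins. Dnajb9 and Sdf2l1 encode partners of BiP, the former a J-domain cochaperone. Hyou1 encodes GRP170, which exchanges the nucleotide of BiP. Creld2 and Manf encode small ER proteins that are induced by ER stress and can be secreted.

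The total was 2511947 to 11069411 unique molecular identifiers (UMIs, counted transcripts) per mouse, over 552 to 5609 cells. Levels are given as CP10K, the UMIs of a gene per 10000 UMIs of a cell, averaged over the cells of 1 mouse and 1 cell class. The table names no cell types. Cells were clustered without the 10 genes and without the other ER and heat shock genes, and clusters were named after marker genes. The class called hepatocyte-like joined cluster 2, led by Sult2a5, Gsta4 and Fabp1, with cluster 5, led by Gm12909, Slc22a30 and Igfbp1. The summed level of 12 hepatocyte markers in it was 267.8 to 708.8 CP10K per mouse. The class called plasma-like joined 2 clusters led by immunoglobulin genes, with 4870 to 5846 CP10K over 10 plasma cell markers in the mice compared. The targeted gene Sirt7 stood at 0.718, 0.512 and 0.546 CP10K over all cells of wild-type mice 1 to 3 and at 0.10, 0.0814 and 0.139 CP10K in SIRT7-/- mice 1 to 3, so the genotypes did not overlap.

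RefSeq promoters of GRCm38.p6, each 300 bases from 250 before to 50 after the annotated start, were found for 8 of the 10 genes, all but Manf and Hyou1. The ER stress response element (ERSE), bound by ATF6 together with NF-Y, was searched as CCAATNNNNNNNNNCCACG on both strands. It was present in 39 of 32851 promoters (0.119%) and in 5 of the 8, those of Hspa5, Hsp90b1, Pdia6, Calr and Creld2. Since the element was first defined in promoters of this kind, the match describes the genes and is no result of the expression data. The 5 promoters are shown to place the element, 5' to 3' along the strand of the gene, with each match in capitals. They lie at chr2:34771840-34772139 on the plus strand for Hspa5, chr10:86705395-86705694 on the minus strand for Hsp90b1, chr12:17266339-17266638 on the plus strand for Pdia6, chr8:84846882-84847181 on the minus strand for Calr and chr15:88819396-88819695 on the plus strand for Creld2. In Calr, in Creld2 and in the second match of Hsp90b1 the element lies on the other strand, so it reads there from the complement of CCACG to that of CCAAT.
Hspa5: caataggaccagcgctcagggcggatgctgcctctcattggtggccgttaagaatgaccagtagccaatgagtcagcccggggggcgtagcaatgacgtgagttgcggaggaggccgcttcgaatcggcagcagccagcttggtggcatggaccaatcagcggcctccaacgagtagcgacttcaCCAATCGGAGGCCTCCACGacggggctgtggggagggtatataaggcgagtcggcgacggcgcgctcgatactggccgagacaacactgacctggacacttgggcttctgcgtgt
Hsp90b1: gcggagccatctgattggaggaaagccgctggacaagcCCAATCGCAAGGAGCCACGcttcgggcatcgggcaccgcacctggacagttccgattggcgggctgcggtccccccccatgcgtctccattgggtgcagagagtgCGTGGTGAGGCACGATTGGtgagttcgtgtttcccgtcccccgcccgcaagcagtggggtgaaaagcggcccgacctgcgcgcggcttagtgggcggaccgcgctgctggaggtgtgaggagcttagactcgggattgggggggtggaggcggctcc
Pdia6: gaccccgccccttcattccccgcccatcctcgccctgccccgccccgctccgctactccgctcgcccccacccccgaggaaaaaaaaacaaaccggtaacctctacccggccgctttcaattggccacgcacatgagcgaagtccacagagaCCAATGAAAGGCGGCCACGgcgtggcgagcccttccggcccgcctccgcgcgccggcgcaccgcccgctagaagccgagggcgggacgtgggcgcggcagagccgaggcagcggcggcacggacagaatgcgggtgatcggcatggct
Calr: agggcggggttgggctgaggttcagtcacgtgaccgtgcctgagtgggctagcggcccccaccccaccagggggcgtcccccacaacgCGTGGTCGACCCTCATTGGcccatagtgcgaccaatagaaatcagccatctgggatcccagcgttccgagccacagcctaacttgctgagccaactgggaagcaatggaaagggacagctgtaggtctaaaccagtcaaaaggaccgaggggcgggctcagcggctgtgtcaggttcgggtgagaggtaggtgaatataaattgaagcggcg
Creld2: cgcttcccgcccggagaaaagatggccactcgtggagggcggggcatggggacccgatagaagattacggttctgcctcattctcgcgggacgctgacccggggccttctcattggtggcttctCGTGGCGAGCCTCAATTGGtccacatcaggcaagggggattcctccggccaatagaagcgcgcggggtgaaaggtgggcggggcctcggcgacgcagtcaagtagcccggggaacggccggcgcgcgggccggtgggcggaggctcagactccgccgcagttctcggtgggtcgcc

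The match nearest to a start site was that of Hspa5, with its last base 47 bases before the start. The last bases lay 80 bases before it in Pdia6, 108 in Creld2, 144 in Calr, and 194 and 89 in Hsp90b1. The promoters of Pdia4, Sdf2l1 and Dnajb9 had no full match, although each held CCACG, as 32.8% of all promoters do, and CCAAT, as 37.4% do. Related elements were searched in the same way. ERSE-II, as ATTGGNCCACG, was in 0 of the 8 promoters and in 0.0365% of all, the XBP1 core TGACGTGG in 0 and 0.676%, and the amino acid response element TTGCATCA, bound by ATF4, in 0 and 0.895%. The genes lie on chromosomes 2 (Hspa5), 6 (Pdia4), 8 (Calr), 9 (Hyou1 and Manf), 10 (Hsp90b1), 12 (Pdia6 and Dnajb9), 15 (Creld2) and 16 (Sdf2l1). On the same strand, the annotation places Rbm15b over Manf, Mir704 over Pdia4, and Gm15344 and Gm25745 over Hsp90b1, so reads of these genes may be shared with their neighbours.

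Plasma-like cells had the highest median level of all 10 genes among the 10 cell classes with at least 20 cells in 1 or more mice. Creld2 had a median of 3.42 CP10K over the 4 mice with at least 20 plasma-like cells (lowest 2.27, highest 7.51) and 0.405 CP10K over the 6 mice in hepatocyte-like cells (0.0367 to 1.05). Sdf2l1 had 4.24 CP10K (3.95 to 6.32) in plasma-like and 0.453 CP10K (0.155 to 0.656) in hepatocyte-like cells. Hsp90b1 had 30.4 CP10K (23.5 to 38.0) in plasma-like cells, 10.7 CP10K (6.36 to 18.1) in macrophage-like and 5.32 CP10K (1.08 to 9.64) in hepatocyte-like cells. For Creld2, Sdf2l1 and Hsp90b1, as for the 3 genes that follow, the ranges of plasma-like and hepatocyte-like cells did not overlap. Manf had 10.98 CP10K (8.64 to 14.4) in plasma-like cells and 2.01 CP10K (0.507 to 2.50) in hepatocyte-like cells. Pdia4 had 5.19 CP10K (4.55 to 9.63) against 1.28 CP10K (0.291 to 1.58), and Pdia6 had 3.93 CP10K (2.87 to 4.36) against 1.41 CP10K (0.214 to 1.97).

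The other genes lay closer together. Hspa5 had a median of 9.07 CP10K (6.40 to 19.6) in plasma-like, 5.32 CP10K (3.57 to 8.36) in macrophage-like and 4.65 CP10K (0.593 to 6.88) in hepatocyte-like cells, and each range overlapped the next. Calr differed least, with 6.05 CP10K (5.58 to 9.12) in plasma-like, 5.24 CP10K (3.88 to 7.54) in macrophage-like, 5.16 CP10K (3.44 to 7.32) in endothelial-like and 3.08 CP10K (0.466 to 3.80) in hepatocyte-like cells. Hepatocyte-like cells came second in order for Dnajb9, at 0.936 CP10K (0.502 to 1.71) after 2.01 CP10K (1.25 to 2.66) in plasma-like cells, and for Hyou1, at 0.579 CP10K (0.148 to 1.45) after 1.15 CP10K (0.791 to 1.57). Their place among the 10 classes was 3 for Hspa5, Pdia4 and Creld2, 5 for Hsp90b1, Pdia6 and Manf, 7 for Calr and 8 for Sdf2l1. B-like cells, the stage from which plasma cells form, were last for Hspa5, Hsp90b1 and Sdf2l1, at 1.77, 2.52 and 0.248 CP10K.

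**Figure D1:**
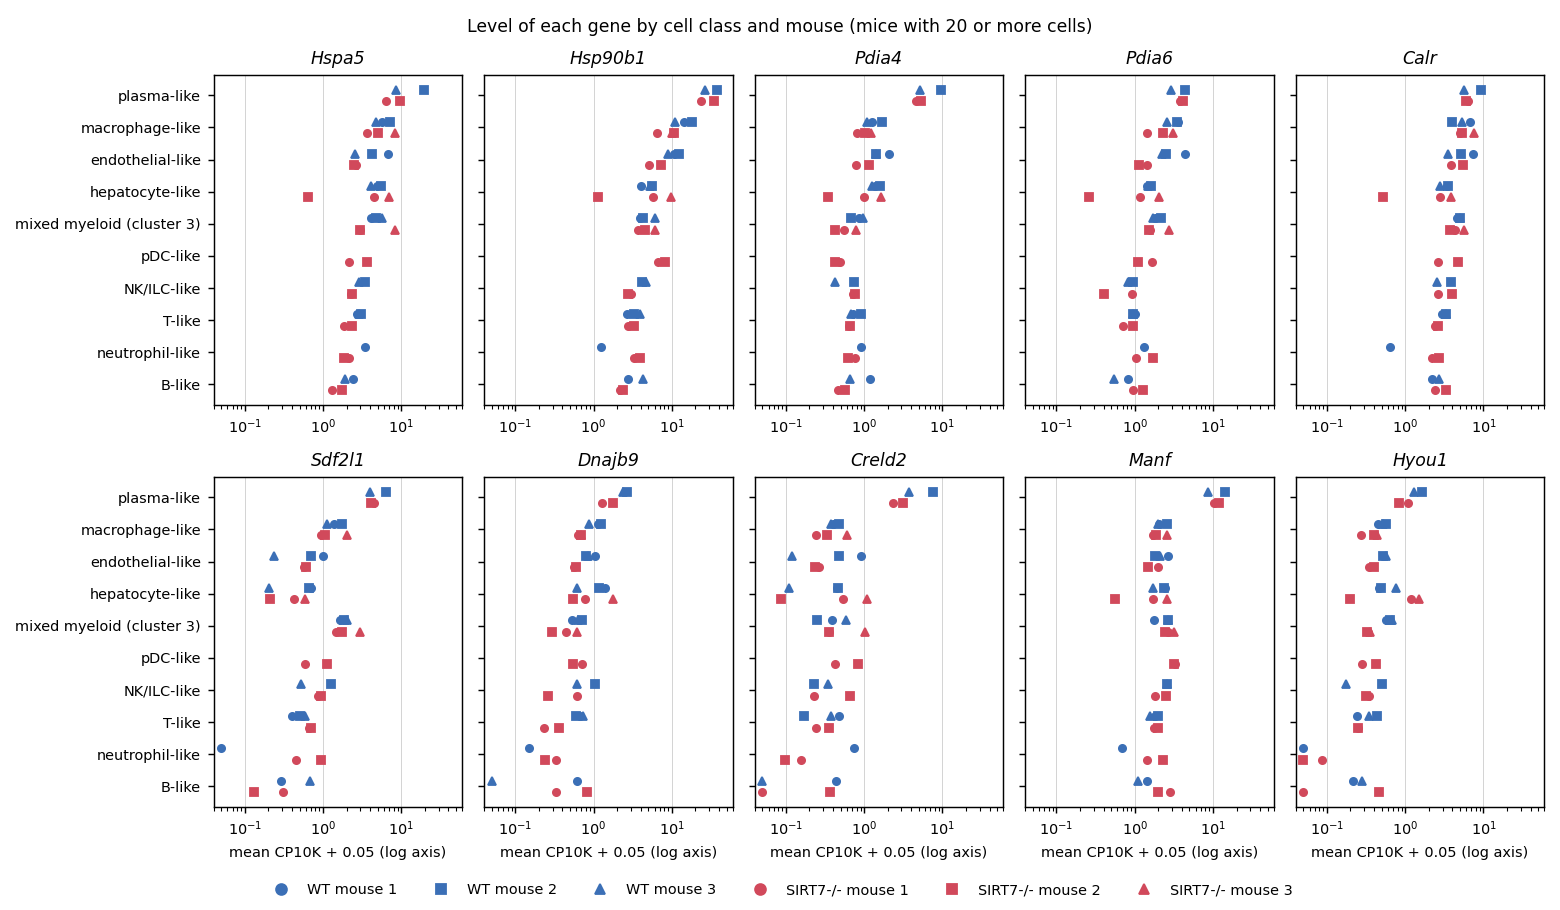
Level of each of the 10 genes in each cell class, as mean CP10K plus 0.05 on a log axis, with 1 point per mouse that had at least 20 cells of the class, wild-type in blue and SIRT7-/- in red. Points at 0.05 stand for a level of 0. Plasma-like cells have the highest median in every panel, although points of other classes overlap theirs for some genes, such as Hspa5, Calr, Dnajb9 and Hyou1. SIRT7-/- mouse 2 lies to the left of the other mice in hepatocyte-like cells for 9 of the 10 genes.

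Within a mouse, plasma-like cells had the higher level in 31 of 31 comparisons with another class for each of 9 genes and in 30 of 31 for Hyou1. The exception was SIRT7-/- mouse 1, where Hyou1 had 1.05 CP10K in plasma-like and 1.15 CP10K in hepatocyte-like cells. The ratio of plasma-like to hepatocyte-like cells of the same mouse had a median of 40.0 for Creld2 (4.72 to 85.0 over 4 mice), 18.8 for Sdf2l1 (10.3 to 25.5), 6.12 for Manf, 6.05 for Hsp90b1 and 5.56 for Pdia4. It was 3.08 for Pdia6, 2.87 for Hspa5 and for Dnajb9, 2.67 for Hyou1 and 2.45 for Calr (2.07 to 12.5). Immunoglobulin, hemoglobin and mitochondrial genes took 54.2% to 69.1% of the UMIs of plasma-like cells and 1.58% to 3.40% of those of hepatocyte-like cells. With these genes left out of the scaling, plasma-like cells again had the highest level of all 10 genes. The same held with a coarser clustering and with the ER genes kept in the clustering. It also held after thinning, which left out cells with under 1000 UMIs and cut the others to 1000. These levels are a description and were not tested.

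In hepatocyte-like cells, 1 library stood apart. SIRT7-/- mouse 2 had a summed level of the 10 genes of 3.99 CP10K, against 20.2, 22.4 and 17.7 CP10K in wild-type mice 1 to 3 and 19.4 and 31.1 CP10K in SIRT7-/- mice 1 and 3. It lay below every other mouse for 9 of the 10 genes, all but Sdf2l1, where 24.9% of the 9857 genes tested did so. The median of the other 5 mice was 11.2 times its level for Creld2, 8.20 times for Hspa5, 7.33 times for Calr, 6.70 times for Pdia6 and 2.27 times for Dnajb9. On the log2 scale, the median over the 10 genes of its difference from the other mice was -2.20, against -0.10 over all genes. The level rested on few UMIs in its 282 cells, from 3 for Creld2 to 45 for Hsp90b1. Its median depth of 1208.5 UMIs per cell was like the 1209 UMIs of SIRT7-/- mouse 1.

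Other measures moved with it. The summed level of the 12 hepatocyte markers was 267.8 CP10K in SIRT7-/- mouse 2, against 365.9 and 346.0 CP10K in SIRT7-/- mice 1 and 3 and 657.5, 708.8 and 392.2 CP10K in wild-type mice 1 to 3. The genotypes therefore did not overlap for these markers. Other lists of ER genes were also lowest in this library, with 6.10 CP10K over 19 further folding factors (10.0 to 15.0 CP10K in the others), 3.70 CP10K over 12 oxidoreductases (8.04 to 14.8) and 7.61 CP10K over 15 genes of ER-associated degradation (14.7 to 20.1). Cytosolic heat shock genes were highest in it, at 45.7 CP10K over 12 genes against 26.1 to 38.7 CP10K. The median mitochondrial share of its hepatocyte-like cells was 2.81%, within the 1.10% to 3.42% of the other mice. The shortfall was not seen in other cells of the same mouse, where the 10 genes summed to 28.0 CP10K in macrophage-like, 20.4 CP10K in endothelial-like and 80.4 CP10K in plasma-like cells, each within the range of the other mice. The part of cell condition or of the hepatocyte mix in this low level was not tested.

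**Figure D2:**
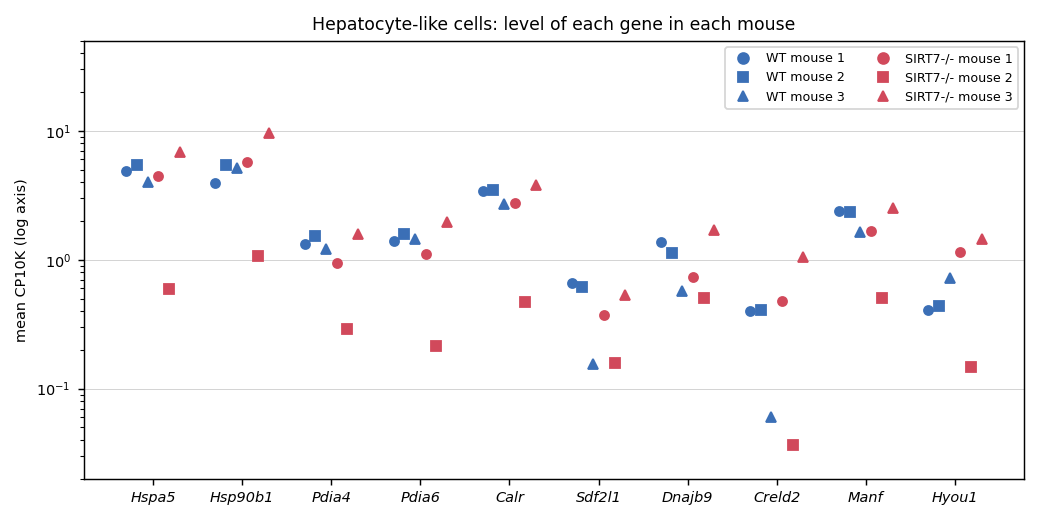
Mean CP10K of each of the 10 genes in the hepatocyte-like cells of each mouse, on a log axis, with 1 point per mouse, wild-type in blue and SIRT7-/- in red. SIRT7-/- mouse 2 lies lowest for 9 of the 10 genes, SIRT7-/- mouse 3 lies highest for 9, all but Sdf2l1, and the genotypes overlap for all 10.

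The hepatocyte-like comparison asks whether the folding genes that the unfolded protein response controls differ between SIRT7-/- and wild-type livers. None of the 10 genes passed the test in hepatocyte-like cells (limma, Benjamini-Hochberg adjusted over all 9857 genes, threshold 0.05), where 11 genes or 0.112% passed and 723 had an unadjusted p under 0.05, none of them among the 10. Fold changes are SIRT7-/- over wild-type, on the scale of log2(CP10K + 0.05). The estimate was below 0 for 8 of the 10 genes, with a median of -0.49 against 0.15 over all genes tested. The genotypes overlapped for all 10, while 3.25% of all genes lay lower in SIRT7-/- mice without overlap. The smallest adjusted p was 0.802, for Pdia4. Other measures separated the genotypes in this class. Besides the hepatocyte markers, lower in all SIRT7-/- mice, 10 immediate-early genes, which cells raise within minutes of a stimulus such as dissociation, summed to 30.5, 9.85 and 23.9 CP10K in wild-type and 9.67, 4.73 and 7.79 CP10K in SIRT7-/- mice. All 8 of them that were tested had an estimate below 0 and none passed. Their part in the values of the 10 genes was not tested.

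BiP, encoded by Hspa5, stood at 4.86, 5.43 and 4.01 CP10K in wild-type mice 1 to 3 and at 4.43, 0.593 and 6.88 CP10K in SIRT7-/- mice 1 to 3. The SIRT7-/- mice thus held both the lowest and the highest level. The log2 fold change was -0.82 ± 0.67 (SE, n = 3 and 3, 95% interval -2.25 to 0.61, limma adjusted p = 0.889). GRP94, encoded by Hsp90b1, stood at 3.96, 5.44 and 5.19 CP10K in wild-type and 5.76, 1.08 and 9.64 CP10K in SIRT7-/- mice. Here SIRT7-/- mice 1 and 3 lay above every wild-type mouse and mouse 2 below, with a log2 fold change of -0.29 ± 0.63 (adjusted p = 0.970).

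Of the disulfide isomerases, Pdia4 had 1.33, 1.54 and 1.22 CP10K in wild-type and 0.936, 0.291 and 1.58 CP10K in SIRT7-/- mice (log2 fold change -0.78 ± 0.49). Pdia6 had 1.39, 1.58 and 1.44 CP10K and 1.12, 0.214 and 1.97 CP10K in the same order (-0.83 ± 0.57). For both genes the wild-type mice lay close together and the SIRT7-/- mice spread to either side of them. Calr had 3.41, 3.48 and 2.70 CP10K in wild-type and 2.75, 0.466 and 3.80 CP10K in SIRT7-/- mice, with the lowest of the 10 estimates at -0.86 ± 0.60 (95% interval -2.14 to 0.41). Without SIRT7-/- mouse 2 that estimate was 0.03.

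The partners of BiP varied among the wild-type mice too. Sdf2l1 had 0.656, 0.615 and 0.155 CP10K in wild-type and 0.370, 0.158 and 0.536 CP10K in SIRT7-/- mice. Dnajb9 had 1.36, 1.14 and 0.569 CP10K and 0.735, 0.502 and 1.71 CP10K. In both, wild-type mouse 3, with 100 hepatocyte-like cells and 4 and 10 UMIs of the genes, was as low as SIRT7-/- mouse 2 or close to it. The log2 fold changes were -0.30 ± 0.52 and -0.15 ± 0.47. Hyou1, the exchange factor, was 1 of the 2 genes with an estimate above 0, at 0.35 ± 0.60, with 0.407, 0.438 and 0.720 CP10K in wild-type and 1.15, 0.148 and 1.45 CP10K in SIRT7-/- mice.

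The other was Creld2, at 0.38 ± 0.80, with 0.400, 0.410 and 0.0605 CP10K in wild-type and 0.482, 0.0367 and 1.05 CP10K in SIRT7-/- mice. The wild-type value of 0.0605 CP10K rested on 2 UMIs. Manf, its fellow among the secreted genes, had 2.38, 2.35 and 1.65 CP10K in wild-type and 1.67, 0.507 and 2.50 CP10K in SIRT7-/- mice, and its estimate was -0.67 ± 0.50. The genotypes overlapped for both genes. SIRT7-/- mouse 2 decided the direction of the list. Without it, 8 of the 10 estimates were above 0 and the median was 0.17. Without SIRT7-/- mouse 3, which had the deepest hepatocyte-like cells at a median of 3291 UMIs, 0 were above 0 and the median was -1.03. None of the 10 genes passed the test in either case. With the logged values of the cells averaged in place of the logged mean, the median over the list was -0.0679.

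The other genes of the response gave no call in hepatocyte-like cells. Xbp1, the factor spliced by IRE1, had a log2 fold change of -0.25 ± 0.44, Atf6 of -0.09 ± 0.41, Ern1, which encodes IRE1, of -0.28 ± 0.51 and Atf4 of 0.10 ± 0.43. The largest of them was Ddit3, which encodes the stress factor CHOP, at 0.81 ± 0.42 (limma adjusted p = 0.726), with 0.322, 0.258 and 0.133 CP10K in wild-type and 0.601, 0.314 and 0.424 CP10K in SIRT7-/- mice. All but SIRT7-/- mouse 2 lay above the wild-type mice. Dnajc3, a further cochaperone of BiP, had -0.69 ± 0.69 and followed the 10 genes in its low level in SIRT7-/- mouse 2, at 0.104 CP10K against 0.920 to 1.92 CP10K. By list, 6 of 17 further folding factors had an estimate above 0, 5 of 12 oxidoreductases, 6 of 14 degradation factors and 8 of 32 translocation and glycosylation genes, with medians of -0.12, -0.16, -0.06 and -0.15. The sensors and factors of the response had 5 of 9 estimates above 0 and a median of 0.02. Genes of the PERK and ATF4 arm had 4 of 6 above 0 and a median of 0.23. Counts past the threshold were 0 in each of these lists, with 3, 2, 0, 0, 0 and 0 genes, in this order, at an unadjusted p under 0.05.

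Both clusters of the class were compared as well. In all 6 mice the 10 genes summed to more in cluster 5 than in cluster 2. Cluster 5 had 23.0, 31.7 and 26.2 CP10K in wild-type and 35.6, 10.0 and 34.2 CP10K in SIRT7-/- mice, and cluster 2 had 18.3, 20.1 and 10.8 CP10K and 6.99, 2.72 and 18.0 CP10K. SIRT7-/- mouse 2 was thus the lowest in each cluster, and 233 of its 282 cells were in cluster 2, against 518 of 915 in SIRT7-/- mouse 1 and 64 of 335 in SIRT7-/- mouse 3. Cells of cluster 5 were the deeper ones in 5 of the 6 mice, all but SIRT7-/- mouse 2. The mean of a class therefore depends on how many cells of each cluster a mouse gave.

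In cluster 2, 8 of the 10 estimates were below 0, with a median of -0.86 (all genes -0.10), and none passed the test, where 42 of 8592 genes or 0.489% did. Pdia4 had 1.44, 1.42 and 0.788 CP10K in wild-type and 0.258, 0.0928 and 0.934 CP10K in SIRT7-/- mice, a log2 fold change of -1.80 ± 0.60 (limma adjusted p = 0.282). Hsp90b1 had 2.59, 4.27 and 3.68 CP10K and 1.06, 0.586 and 3.45 CP10K, or -1.37 ± 0.58 (adjusted p = 0.466). In both genes SIRT7-/- mouse 3 reached the wild-type range and the other two did not. These were the only ones of the 10 genes with an unadjusted p under 0.05, as 900 of the 8592 genes had. After thinning to 1000 UMIs per cell, with shallower cells left out, both passed, among 183 genes that did. The estimates were then -1.86 for Pdia4 (limma adjusted p = 0.0303) and -1.31 for Hsp90b1 (adjusted p = 0.0310), from the deeper cells only. Without SIRT7-/- mouse 3, Pdia4 at -2.55, Hsp90b1 at -2.05 and Calr at -2.01 passed, among 151 genes that did. Hspa5 had -1.60 ± 1.17.

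The other ER lists lay low in cluster 2 as well. Estimates below 0 were found for 14 of 17 further folding factors, 12 of 12 oxidoreductases, 13 of 14 degradation factors and 26 of 32 translocation and glycosylation genes, with medians of -1.09, -0.55, -0.85 and -0.60. The test was passed by 1 gene of these lists, Pdia3, which encodes the disulfide isomerase that works with calreticulin and was named after its values were seen. It had 1.08, 1.55 and 0.647 CP10K in wild-type and 0.277, 0.0236 and 0.206 CP10K in SIRT7-/- mice, a log2 fold change of -2.56 ± 0.54 (limma adjusted p = 0.0297). The genotypes did not overlap, but the call was lost in 7 of 15 other settings and in 3 of 6 fits without 1 mouse, those leaving out SIRT7-/- mouse 2, wild-type mouse 2 or wild-type mouse 3, with limma adjusted p-values of 0.0105 to 0.475 over all these fits. Of genes with a place along the liver lobule, 5 of 8 pericentral and 8 of 9 periportal ones had an estimate below 0 in cluster 2. The summed pericentral level overlapped, at 40.5, 67.0 and 60.8 CP10K in wild-type and 40.9, 43.1 and 69.7 CP10K in SIRT7-/- mice. The periportal sums did not, at 128.2, 76.0 and 86.7 against 51.2, 58.2 and 73.6 CP10K. By the test 1 gene of each list was lower, and both were named after their values were seen. Cyp2e1, a pericentral cytochrome, fell by 1.33 on the log2 scale (limma adjusted p = 0.0297), and Hal, the periportal histidine ammonia-lyase, fell by 1.92 (limma adjusted p = 0.00712). Cyp2e1 passed in 2 and Hal in 6 of the 6 fits without 1 mouse. Of the 12 hepatocyte markers the summed level was 689.2, 772.5 and 457.1 CP10K in wild-type and 442.1, 293.2 and 431.7 CP10K in SIRT7-/- mice. The part of these measures in the level of the ER genes was not tested.

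Cluster 5 gave 7 estimates below 0, a median of -0.27 (all genes 0.19) and 0 of 10 past the test (0.244% of 10259 genes). Hsp90b1 and Pdia4 had 0.02 ± 0.43 and -0.03 ± 0.38 there. The further folding factors, oxidoreductases and degradation factors had medians of 0.32, 0.24 and 0.23. The translocation and glycosylation genes went the other way, with 20 of 32 estimates below 0 and a median of -0.11. Of the immediate-early genes, 9 of 9 had an estimate below 0 in cluster 5, and Ier2, Junb, Fos and Egr1, also named after their values were seen, were lower by the test, with log2 fold changes of -2.92, -3.40, -4.23 and -3.20 (limma adjusted p = 0.00116, 0.00116, 0.0274 and 0.0275). With 1 mouse left out, Ier2 passed in 6 of 6 fits, Junb in 5, and Fos and Egr1 in 3 each. The difference of the genotype effect between the clusters, taken within each mouse as cluster 5 minus cluster 2, was 1.39 ± 0.62 for Hsp90b1 and 1.78 ± 0.74 for Pdia4, both with a limma adjusted p of 0.398. None of the 10 genes and 0.0% of 8250 genes passed that test, while 1025 had an unadjusted p under 0.05.

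In plasma-like cells, 2 mice of each genotype could be compared, since wild-type mouse 1 had 12 such cells and SIRT7-/- mouse 3 had 14. None of the 10 genes passed the test, where 5 of 7667 genes or 0.0652% did. The estimate was below 0 for 9 of the 10, with a median of -0.38 against 0.22 over all genes, and 2 of the 10 had an unadjusted p under 0.05, where 505 of all genes did. The genotypes did not overlap for Dnajb9, Creld2 and Hyou1, each lower in SIRT7-/- mice, as for 11.1% of all genes. With 2 against 2 mice, an exact permutation test cannot go below 0.333.

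Creld2 had 7.51 and 3.73 CP10K in wild-type mice 2 and 3 and 2.27 and 3.12 CP10K in SIRT7-/- mice 1 and 2, a log2 fold change of -0.98 ± 0.35 (95% interval -1.73 to -0.23, limma adjusted p = 0.644). Dnajb9 had 2.66 and 2.32 CP10K against 1.25 and 1.71 CP10K, or -0.75 ± 0.33 (adjusted p = 0.752). Hspa5 had 19.6 and 8.53 CP10K against 6.40 and 9.62 CP10K, or -0.72 ± 0.36 (adjusted p = 0.767). For Hspa5 and Creld2 the highest level by far was that of wild-type mouse 2, while Dnajb9 was alike in both wild-type mice. Hyou1 had 1.57 and 1.26 CP10K against 1.05 and 0.791 CP10K (-0.60 ± 0.36), and Pdia4 had 9.63 and 5.14 CP10K against 4.55 and 5.24 CP10K (-0.52 ± 0.31).

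The remaining genes lay nearer to 0. Calr had a log2 fold change of -0.24 ± 0.29, Sdf2l1 of -0.23 ± 0.30, Hsp90b1 of -0.16 ± 0.25, Manf of -0.03 ± 0.28 and Pdia6 of 0.15 ± 0.30. Pdia6 was below 0 with immunoglobulin, hemoglobin and mitochondrial genes left out of the scaling, at -0.19, and after centring on the median gene, at -0.02. The interval of Hsp90b1 ran from -0.71 to 0.38 and that of Manf from -0.62 to 0.57, so differences of this size in either direction were within the error.

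Depth moved with these levels. The plasma-like cells of wild-type mouse 2 had a median of 12701.5 UMIs, and those of wild-type mouse 3 and SIRT7-/- mice 1 and 2 had 4675, 3091 and 4073 UMIs. The 10 genes summed to 113.1 CP10K in wild-type mouse 2 and to 68.6, 63.7 and 80.4 CP10K in the other 3. The 2 mice with under 20 plasma-like cells also had deep cells and high sums in both genotypes, at 11555.5 UMIs and 113.2 CP10K in wild-type mouse 1 and 9814 UMIs and 108.0 CP10K in SIRT7-/- mouse 3. With all 6 mice, at a minimum of 10 cells, the median log2 fold change over the 10 genes was -0.32, and without wild-type mouse 2 it was 0.0103. Without wild-type mouse 3, the lowest estimates were -1.48 for Creld2, -1.32 for Hspa5 and -0.97 for Pdia4, in a fit of 1 wild-type mouse against 2. Neutrophil markers, 9 genes, summed to 0.0391 and 0.339 CP10K in the wild-type and 10.8 and 13.8 CP10K in the SIRT7-/- plasma-like cells. The part of depth and of other cells' RNA in the genotype difference was not tested.

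**Figure D3:**
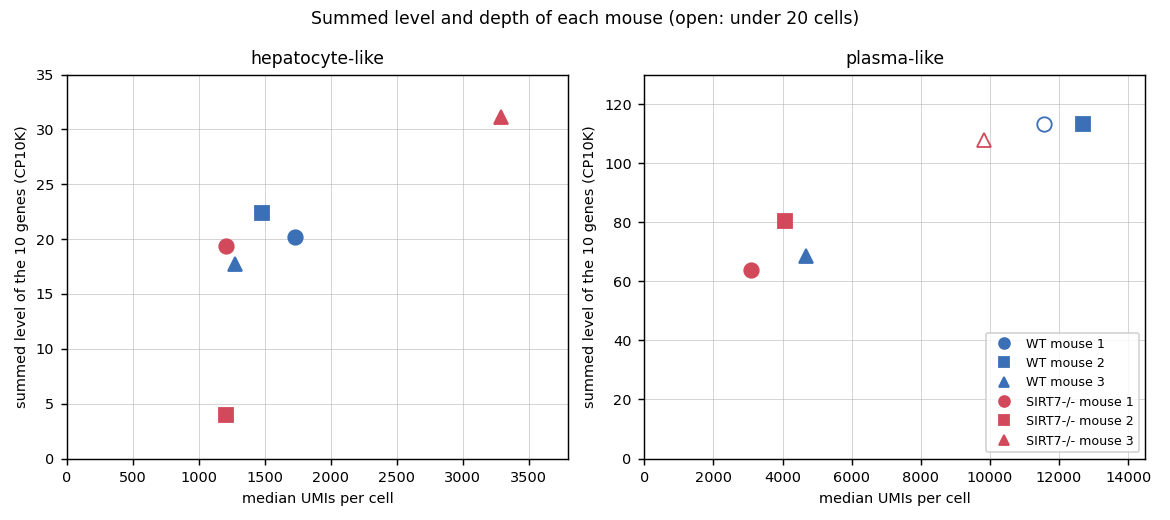
Summed level of the 10 genes in CP10K against the median UMIs per cell, for hepatocyte-like and plasma-like cells, with 1 point per mouse and open points for mice with under 20 cells. In plasma-like cells the 3 mice with the deepest cells have sums of 108.0 to 113.2 CP10K and the others 63.7 to 80.4 CP10K, and in hepatocyte-like cells SIRT7-/- mouse 2 lies at 3.99 CP10K beside mice of like depth at 17.7 to 19.4 CP10K.

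Xbp1, whose product drives the secretory program of plasma cells, had 8.67 and 11.04 CP10K in wild-type and 6.64 and 9.51 CP10K in SIRT7-/- plasma-like cells (log2 fold change -0.30 ± 0.27), and the genotypes overlapped. Dnajc3 had 3.49 and 3.29 CP10K against 2.57 and 2.78 CP10K (-0.34 ± 0.29, limma adjusted p = 0.846). Of 33 translocation and glycosylation genes, 26 had an estimate above 0, with a median of 0.25, near the 0.22 of all genes. Of 18 further folding factors 9 did, and of 15 degradation factors 6. None of these lists had a gene past the test.

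Whether the genotype effect differed between plasma-like and hepatocyte-like cells was tested within the 4 mice that held both. None of the 10 genes passed, and 0 of 6982 genes (0.0%) did, with 390 at an unadjusted p under 0.05. The difference, as plasma-like minus hepatocyte-like, was above 0 for 7 of the 10 genes. It was highest for Pdia6, at 1.64 ± 0.90 (95% interval -0.31 to 3.58, limma adjusted p = 0.887), and lowest for Creld2, at -0.91 ± 1.14. These 4 mice include SIRT7-/- mouse 2, whose hepatocyte-like levels stood apart.

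**Figure D4:**
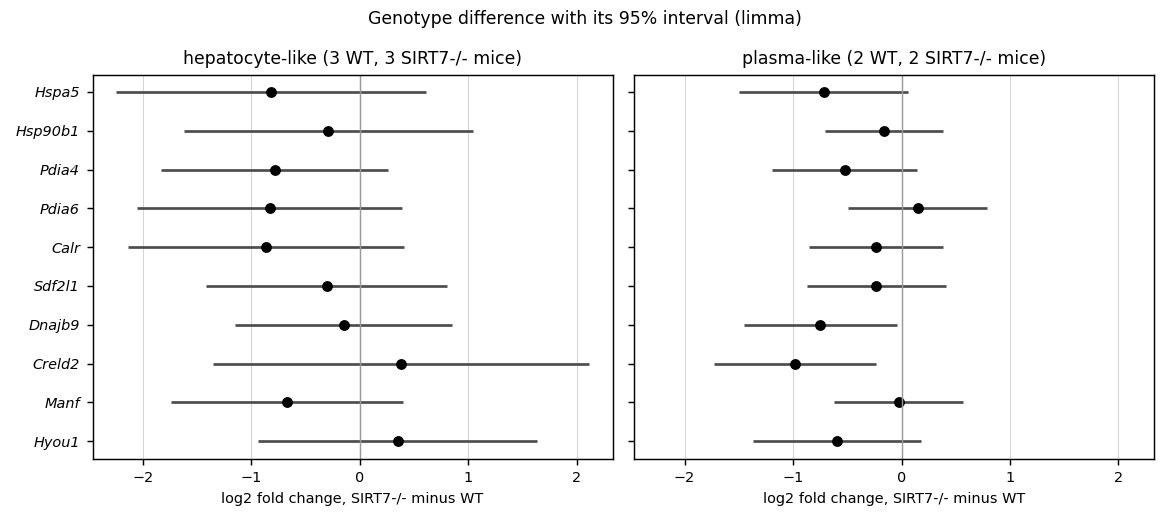
log2 fold change of each of the 10 genes, SIRT7-/- minus wild-type, with its 95% interval from limma, for hepatocyte-like and plasma-like cells. All 10 intervals hold 0 in hepatocyte-like cells, and 8 of 10 do in plasma-like cells, where those of Creld2 and Dnajb9 lie below 0 before adjustment.

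In macrophage-like cells, 9 of the 10 estimates were below 0 (median -0.29, all genes -0.03), and none passed the test, where 20 of 9946 genes or 0.201% did. Hsp90b1, which macrophages need to place Toll-like receptors on their surface, had 14.3, 18.1 and 10.9 CP10K in wild-type and 6.36, 10.4 and 9.90 CP10K in SIRT7-/- mice, a log2 fold change of -0.70 ± 0.23 (limma adjusted p = 0.282). Dnajb9 had 1.09, 1.19 and 0.818 CP10K against 0.590, 0.634 and 0.639 CP10K, or -0.67 ± 0.25 (adjusted p = 0.337). The genotypes did not overlap for these and for Hyou1, at -0.48 ± 0.32, all lower in SIRT7-/- mice, as for 9.95% of all genes, and the exact permutation p was 0.1, the smallest that 3 against 3 mice allow. Hepatocyte marker RNA in these cells also differed between mice, at 136.9, 103.6 and 54.5 CP10K in wild-type and 56.7, 10.98 and 62.8 CP10K in SIRT7-/- mice. The class joined clusters 1, 6, 9 and 14, in shares that differed between mice. Cluster 9 gave 227 of 2644, 73 of 633 and 2 of 83 cells in SIRT7-/- mice 1 to 3. In wild-type mice 1 to 3 it gave 1 of 55, 0 of 46 and 31 of 243. The part of hepatocyte RNA and of this mix in the result was not tested.

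Endothelial-like cells, with 3 wild-type and 2 SIRT7-/- mice, had 9 of 10 estimates below 0 and the lowest median of the classes at -0.60 (all genes -0.05), and none passed the test, where 34 of 10667 genes or 0.319% did. Pdia6 had 4.28, 2.43 and 2.19 CP10K in wild-type mice and 1.41 and 1.08 CP10K in SIRT7-/- mice 1 and 2, a log2 fold change of -1.17 ± 0.36 (limma adjusted p = 0.230). Hsp90b1 had 10.6, 12.2 and 8.88 CP10K against 5.07 and 7.31 CP10K, or -0.77 ± 0.32 (adjusted p = 0.556). The genotypes did not overlap for 5 genes, Hsp90b1, Pdia4, Pdia6, Dnajb9 and Hyou1, all lower in SIRT7-/- mice, as for 13% of all genes. SIRT7-/- mouse 3 had 8 endothelial-like cells and was not used, and its summed level was 49.3 CP10K, above the 17.0 to 36.9 CP10K of the mice compared. Depth differed too, with medians of 2531.5, 1897 and 1062 UMIs in wild-type and 959 and 1201 UMIs in SIRT7-/- cells. Hepatocyte marker RNA in these cells stood at 191.5, 177.3 and 111.8 CP10K in wild-type and 136.5 and 30.7 CP10K in SIRT7-/- mice. All 9 periportal hepatocyte genes had an estimate below 0, with a median of -1.41, as had 7 of 8 pericentral ones, of which the cytochrome Cyp2c29 passed the test at -2.02 ± 0.44 (limma adjusted p = 0.0262), and in 2 of 5 fits without 1 mouse. The part of depth and of hepatocyte RNA in the result was not tested.

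In T-like cells, compared over 3 and 2 mice, none of the 10 genes passed the test, where 0.458% of 10040 genes did, and the median was -0.24 (all genes -0.02). Dnajb9 had 0.622, 0.552 and 0.679 CP10K in wild-type and 0.184 and 0.315 CP10K in SIRT7-/- mice, a log2 fold change of -1.19 ± 0.36 (limma adjusted p = 0.215), the smallest adjusted p of any of the 10 genes in any class. The genotypes did not overlap for 5 genes that were lower in SIRT7-/- mice (11.7% of all genes) and for Sdf2l1, which was higher. The class joined cluster 4 with cluster 12, which was led by Hist1h2ap, Top2a and Rrm2, genes of dividing cells. Cluster 12 gave 73 of 480 and 191 of 523 cells in SIRT7-/- mice 1 and 2. In wild-type mice 1 to 3 it gave 3 of 189, 6 of 136 and 16 of 230. Depth differed between the mice, with medians of 2710, 2632 and 1072.5 UMIs in wild-type and 1175 and 2017 UMIs in SIRT7-/- T-like cells. Hepatocyte marker RNA in these cells stood at 192.6, 141.0 and 127.3 CP10K in wild-type and 133.3 and 25.1 CP10K in SIRT7-/- mice. The part of this mix, of depth and of hepatocyte RNA in the result was not tested. In cluster 3, a mix of myeloid cells that was left without a name, none passed where 0.0415% of 9648 genes did, and Hyou1 had 0.511, 0.580 and 0.624 CP10K in wild-type and 0.288, 0.272 and 0.308 CP10K in SIRT7-/- mice (-0.87 ± 0.32, adjusted p = 0.632). It was the only one of the 10 genes there whose groups did not overlap (6.9% of all genes were lower in this way). NK/ILC-like and B-like cells, with 2 mice per genotype, gave no call among the 10 genes and 0.0% over 9563 and 9283 genes, with medians of -0.11 (all genes 0.10) and -0.33 (0.09). At an unadjusted p under 0.05 there were 628 and 333 genes in these 2 classes, 0 of the 10 among them.

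**Figure D5:**
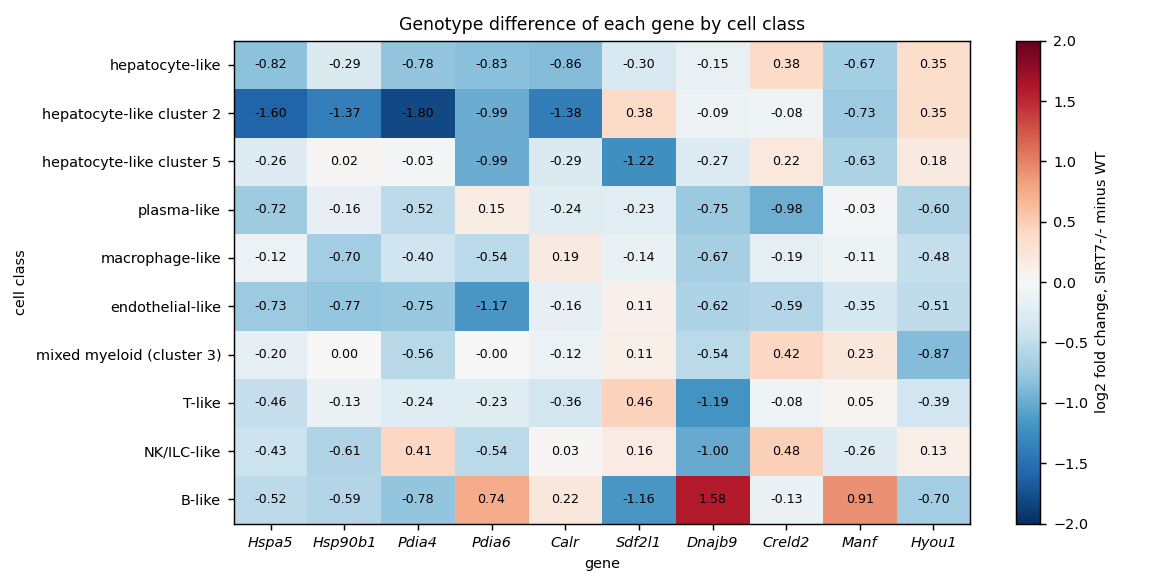
log2 fold change of each of the 10 genes, SIRT7-/- minus wild-type, in each cell class and in both hepatocyte-like clusters, blue where the estimate is below 0 and red where it is above. The column of Hspa5 is blue in every row, and no cell of the map passed the test.

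Set side by side over the 8 classes, which share their mice and so are not independent, Hspa5 had an estimate below 0 in 8 of 8. Of the 6282 genes tested in all 8 classes, 229 or 3.65% were below 0 in each. Without SIRT7-/- mouse 1, and likewise without SIRT7-/- mouse 2, Hspa5 was below 0 in 6 of 8, and after centring on the median gene in 7 of 8. Hsp90b1, Pdia4 and Dnajb9 were below 0 in 7 classes, Pdia6 and Hyou1 in 6, Calr, Creld2 and Manf in 5 and Sdf2l1 in 4. Non-overlapping groups with lower levels in SIRT7-/- mice occurred in 4 classes each for Hsp90b1, Dnajb9 and Hyou1, and in 3 each for Hspa5 and Pdia4. Of the 6282 genes, 3.14% had such groups in at least 4 classes and 7.69% in at least 3. Groups that did not overlap with higher levels in SIRT7-/- mice occurred in 1 class each for Pdia6, Sdf2l1 and Manf.

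The genes whose levels ran most like those of the 10 were ranked by Spearman correlation with the mean of the 10 centred log2 levels, over 45 points of a mouse and a class from 10 classes that share libraries and depth, among 3277 genes. Ssr3, of the translocon-associated complex, led with 0.82, followed by Xbp1 with 0.82, Magt1, of the oligosaccharyltransferase, with 0.80 and Derl1, of ER-associated degradation, with 0.78. Surf4, a cargo receptor, had 0.75 and Rpn1, of the oligosaccharyltransferase, 0.72. Sel1l, Selenos, Tmed10 and Fkbp2 followed with 0.66 to 0.69. Between pairs of the 10 genes the correlation ran from 0.21 to 0.80 over 45 pairs, with a median of 0.63. These values are a description and carry no test.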

How the data were processed

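Single cells of 6 livers, 3 wild-type and 3 SIRT7-/-, were sequenced with 1 library per mouse, and groups were taken from the labels. Per the study's methods and the submitters' processing notes, the authors used Cell Ranger 6.0.0 and mm10, kept cells that had at least 500 genes and a mitochondrial share of at most 5%, and scaled each cell to 10000. The values deposited by the authors are the natural log of CP10K + 1, for 11610 cells and 16623 genes. The unit was recorded by name for 12 gene columns, and it is the same in every other gene column, each of which was used. All 12961041 values above 0 came back as whole UMIs within 0.02 (largest deviation 0.00365). Among the cells, 13 barcodes occurred in more than 1 mouse. The highest mitochondrial share in a cell was 5.01%.

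Cells were assigned to mice by the barcode ending, with 0 left over, and clustered with scanpy 1.11.5 and leidenalg 0.10.2 (1000 variable genes, 50 components, 3 neighbors per mouse, resolution 1) without 119 ER and heat shock genes. Classes were named from markers, so they may differ from the authors' own. No doublets were removed, since scrublet marked 0.396% of the cells. Free RNA was not modelled. For each class, log2(mean CP10K + 0.05) per mouse was compared with limma 3.58.1 (trend and robust, R 4.3.3), with the mouse as the replicate, over mice with at least 20 cells, classes with at least 2 such mice per genotype, and genes whose mean reached 0.05 CP10K, with Benjamini-Hochberg adjustment over all genes. Exact permutation tests were two-sided. In data simulated from these means with nothing changed, there were 0 false calls in each class. With changes put in, there were 2 false calls in cluster 3 and 3 in macrophage-like cells. Of genes changed by 2 on the log2 scale, 0% were recovered in hepatocyte-like and plasma-like, 41.9% in macrophage-like and 28% in hepatocyte-like cluster 2 cells. Most changes of this size thus passed unnoticed in the simulation. It was drawn once per class and took each gene's residual spread over these few mice as its true spread, so recovery in the real data may differ. The spread between mice includes counting error.

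The members and all gene lists were chosen with earlier results of these data known. The genes named besides are Xbp1, Atf6, Ern1, Atf4, Ddit3, Dnajc3 and Sirt7, any gene of the ER lists past the threshold in hepatocyte-like or plasma-like cells, and the 10 genes most like the members. Pdia3, Cyp2e1, Hal, Cyp2c29, Ier2, Junb, Fos and Egr1 were named after their values were seen, since they passed in a hepatocyte-like cluster or in endothelial-like cells. RefSeq promoters are those of GRCm38.p6. Alternatives covered pseudocount, filters, averaging, scaling, thinning, the limma settings, the clustering, the cell minimum, each mouse left out and the replicate block. Thinning used only cells with at least 1000 UMIs, so its values come from a deeper part of the cells. Libraries were taken as 1 mouse each, so p-values measure the spread between these mice.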

Additional observations from a re-analysis of the deposited data

Results flagged for a closer look

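Pdia6 and Manf, of which the latter encodes a small secreted ER protein, had genotype estimates of opposite direction in different classes. In each, every compared mouse of one genotype lay above every compared mouse of the other, but none of these estimates passed the test. Pdia6 was higher in SIRT7-/- B-like cells, at 0.905 and 1.24 CP10K in SIRT7-/- mice 1 and 2 against 0.762 and 0.494 CP10K in wild-type mice 1 and 3, a log2 fold change of 0.74. It was lower in SIRT7-/- T-like cells, at 0.663 and 0.893 CP10K against 0.956, 0.897 and 0.894 CP10K, where SIRT7-/- mouse 2 lay only just below the wild-type mice, and in SIRT7-/- endothelial-like cells, at 1.41 and 1.08 CP10K against 4.28, 2.43 and 2.19 CP10K. Manf was higher in SIRT7-/- B-like cells, at 2.76 and 1.94 CP10K against 1.39 and 1.04 CP10K, a log2 fold change of 0.91. It was lower in SIRT7-/- NK/ILC-like cells, at 1.77 and 2.48 CP10K against 2.50 and 2.52 CP10K, where SIRT7-/- mouse 2 lay only just below the wild-type mice. The limma adjusted p was 0.92 for both genes in B-like cells and 0.91 for Manf in NK/ILC-like cells. For Pdia6 it was 0.97 in T-like and 0.23 in endothelial-like cells. The differences between classes were not tested. The share of all genes whose genotypes did not overlap in either direction was 36.5% in NK/ILC-like and 28.4% in B-like cells, and 22.5% and 21.9% in endothelial-like and T-like cells. The B-like values rest on 22 to 68 cells per mouse, with 8 and 6 UMIs of Pdia6 in SIRT7-/- and 4 and 3 in wild-type mice, and 24 and 13 UMIs of Manf against 8 and 3. With mice of at least 10 cells, the T-like estimate of Pdia6 turned to 0.24, since SIRT7-/- mouse 3, with 18 T-like cells, had 2.14 CP10K, above every wild-type mouse.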

How the results depend on the processing

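No gene among the 10 passed the test in hepatocyte-like cells under any alternative run, and in plasma-like cells 0 to 3 did when 1 mouse was left out, with the lone mouse of a genotype then assumed to vary like the others. The median over the 10 genes stayed below 0 in hepatocyte-like and plasma-like cells in every alternative that kept all mice. Some other medians moved by more than the spread. The mean of logged values is on the scale of log2(CP10K + 1), so the size of its estimates is not directly comparable with the others. In T-like cells the median was -0.0896 with the mean of logged values, 0.017 with mice of at least 10 cells and -0.0785 after thinning. In endothelial-like cells it was -0.37 with a pseudocount of 0.5, -0.31 with the mean of logged values, -0.82 with summed UMIs and -0.92 after thinning, and in hepatocyte-like cluster 5 it was 0.36 with at least 50 cells. In hepatocyte-like cluster 2, 2 of the 10 genes passed after thinning and 0 to 3 with 1 mouse left out.

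The number of all genes past the threshold moved in hepatocyte-like cells from 11 to 3 with a pseudocount of 0.5, with no filter, with summed UMIs and without the trend and robust settings, to 4 after thinning, to 0 with the mean of logged values, and to 3 to 26 with 1 mouse left out. In plasma-like cells it moved from 5 to 14 with a pseudocount of 0.5, 3 with a filter of 0.2 CP10K, 72 with no filter, 60 with the mean of logged values, 11 with summed UMIs, 39 with immunoglobulin, hemoglobin and mitochondrial genes left out of the scaling, 2 without trend and robust, 1 with at least 10 cells, 18 after thinning, and 3 to 879 with 1 mouse left out, the latter without wild-type mouse 3. Over the settings without a mouse left out, it ran from 2 to 183 around 42 in hepatocyte-like cluster 2 and from 1 to 98 around 25 in cluster 5. It ran from 1 to 146 around 20 in macrophage-like, 0 to 84 around 34 in endothelial-like and 4 to 287 around 46 in T-like cells. With 1 mouse left out it ran from 21 to 151 in cluster 2, 8 to 165 in cluster 5 and 1 to 104 in macrophage-like cells. In endothelial-like and T-like cells some of these fits hold 1 SIRT7-/- mouse, and their counts are not given.

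Some directions turned, also with all mice kept and from main estimates of 0.35 for Hyou1, -0.30 for Sdf2l1 and -0.29 for Hsp90b1 in hepatocyte-like cells. With all mice kept, the estimates that turned in hepatocyte-like cells were Hsp90b1 at 0.00641 and Dnajb9 at 0.0251 with the mean of logged values, and Hyou1 at -0.0624, Dnajb9 at 0.0714 and Sdf2l1 at 0.0431 after thinning. In plasma-like cells they were Pdia6 at -0.16 with the mean of logged values, -0.19 with the other scaling and -0.0213 with centring, and Manf at 0.0247 and Sdf2l1 at 0.0827 after thinning. Pdia6 in T-like cells was 0.24 with at least 10 cells. With 1 mouse left out, the ranges in hepatocyte-like cells were -1.49 to 0.22 for Hspa5, -0.93 to 0.62 for Hsp90b1, -1.42 to 0.0264 for Calr, -1.45 to 0.0155 for Pdia6, -0.62 to 0.22 for Dnajb9, -0.89 to 0.11 for Sdf2l1, -0.40 to 1.43 for Creld2 and -0.19 to 1.27 for Hyou1. In plasma-like cells they were -0.43 to 0.11 for Hsp90b1, -0.39 to 0.34 for Manf, -0.59 to 0.12 for Calr, -0.57 to 0.10 for Sdf2l1 and -0.15 to 0.45 for Pdia6. The median over the 10 genes ran from -0.61 to 0.56 in B-like and from -0.49 to 0.0183 in NK/ILC-like cells. The causes were not tested.

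The replicate numbers are shared between the genotypes, but the labels do not say whether same-numbered mice were processed together, and the main fit used no pairing. Same-numbered mice correlated in their deviations by -0.04, 0.14 and 0.02 in hepatocyte-like cells. Over all classes the values ran from -0.11, in macrophage-like cells, to 0.23, in T-like cells. So few mice cannot settle whether they were paired. With the replicate number as a block, the hepatocyte-like median was -0.49 and no gene of the 10 passed there. The block could not be fitted in B-like, NK/ILC-like and plasma-like cells. Leaving out the deepest 5% of the cells of each mouse, an alternative chosen after seeing the data because the doublet caller marked 0.396% of the cells, and a minimum of 50 cells gave no value for plasma-like cells, since wild-type mouse 2 then fell under the minimum.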
